A study of Rattus norvegicus with 23 samples.

Results

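The collagens, laminins and integrins were taken as every probe set on the array whose single annotated gene symbol begins with Col and a digit, with Lama, Lamb or Lamc and a digit, or with Itga or Itgb. This gave 112 probe sets of 77 genes, among the 31042 probe sets that are not controls and the 14217 genes they name. They comprised 58 probe sets of 41 collagen genes, 14 probe sets of 10 laminin genes and 34 probe sets of 22 integrin subunit genes. The remaining 6 probe sets, of Itgb1bp1, Itgb1bp2, Itgb3bp and Itgbl1, match by name but encode no integrin subunit, and they are described apart.

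RNA was measured in the CA3 field of the hippocampus of 23 male Long-Evans rats, with 1 Affymetrix Rat Genome 230 2.0 array per animal. The rats received no treatment. The groups were aged impaired rats (24 to 26 months old, n = 8), aged unimpaired rats (24 to 26 months old, n = 6) and young rats (6 months old, n = 9). Aged rats were assigned by a learning index from the Morris water maze, in which a rat learns where a hidden platform lies; the unimpaired scored within the range of the young and the impaired scored worse. Values are log2 expression values, and a difference between groups is on the log2 scale.

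Collagens and laminins are trimeric proteins of the extracellular matrix. Fibrillar collagens build fibres in connective tissue such as the meninges, while type IV collagens and laminins form the basement membrane, which in the brain lies mainly around blood vessels and under the pial surface. Integrins are surface receptors made of an alpha and a beta subunit, which bind these and other matrix ligands and connect them to the cytoskeleton through talin and vinculin.

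Of 6 CA3 markers, Grik4, Bok, Cpne4 and Nrip3 were measured on every array, whereas Iyd lay near the floor of the scale, as did Coch except at 7.12 in aged impaired rat 5 and 6.04 in young rat 1. Nrip3 was lower in aged impaired than in young rats (-0.30, adjusted p = 0.00336), and the median difference of the 4 tested CA3 markers was -0.21. Markers of the neighbouring CA1 field (Wfs1, Fibcd1, Pou3f1 and Mpped1) were also measured. Their summed linear signal varied widely, from 728 to 2520 in aged impaired rats, 1030 to 1510 in aged unimpaired rats and 340 to 1950 in young rats. Prox1, a marker of the dentate gyrus, spanned 6.24 to 8.02, 6.75 to 7.81 and 6.70 to 8.19 in these groups. The part of neighbouring fields in the group differences was not tested. Array medians lay between 3.388 and 3.458, and no 2 arrays held the same values. By group the medians ran from 3.4287 to 3.4585 in aged impaired rats, 3.412 to 3.4252 in aged unimpaired rats and 3.3881 to 3.4178 in young rats. Every aged impaired median thus lay above that of every other array, so array level and the aged impaired group cannot be told apart. In 2 animals, aged impaired 5 and young 1, the fibrillar collagens Col1a1 and Col1a2 stood apart from all other animals, as described below, so the main results are also given without these arrays.

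Most of the family lay below a log2 value of 4 in CA3, as did the median of every array. Of the 112 probe sets, 32 (26 genes) reached 4 on at least 6 arrays and were tested, against 14647 of all 31042 probe sets. A further 74 stayed below 4 on every array, and 45 of the 77 genes had no probe set that reached 4 on any array. No probe set was tested for the 5 laminin alpha chain genes, whose highest value on any array was 3.21 (Lama1), nor for the 5 collagen VI genes, the network-forming collagens, the multiplexins or the alpha subunits that bind collagen. Each alpha subunit gene grouped here as laminin-binding (Itga3, Itga6 and Itga7) had a tested probe set. A probe set near the floor may be a weak probe as well as a rare transcript, so low values set no order between genes.

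**Figure D1:**
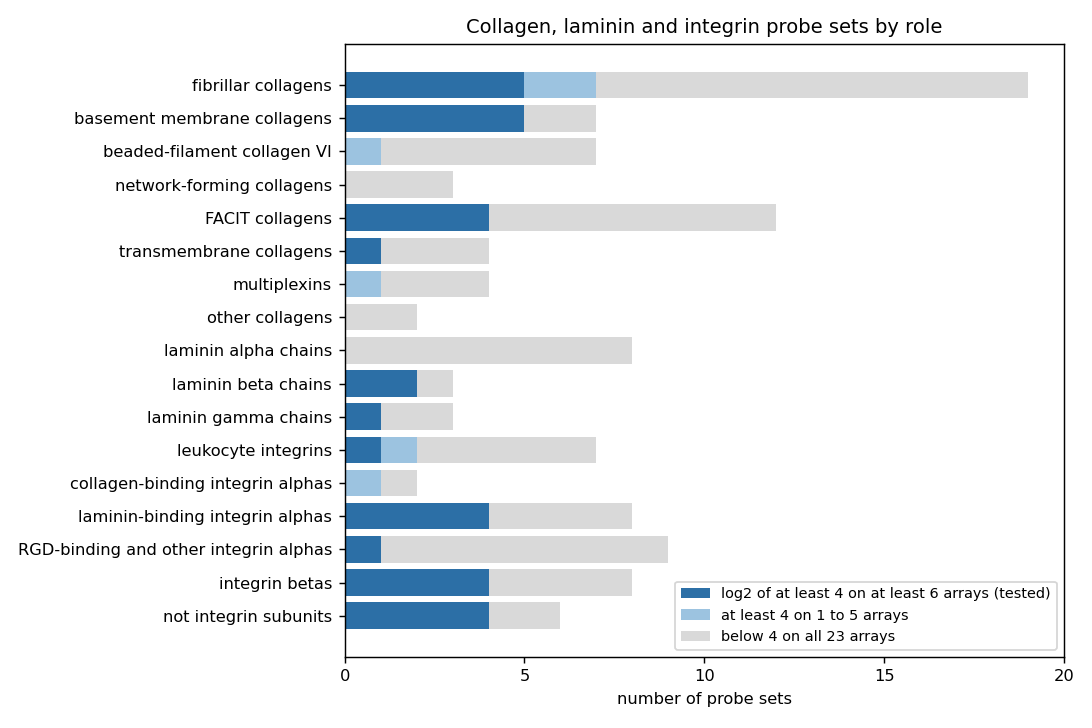
Number of probe sets (horizontal axis) in each role group of the family, split by how many of the 23 arrays reached a log2 value of 4. Of 112 probe sets, 32 were tested (dark), and the laminin alpha chains and the network-forming collagens have none at 4 or above on any array.

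In aged impaired against young rats, 6 of the 32 tested probe sets passed the threshold, an adjusted p of 0.05 (18.8%, against 9.76% of all 14647 probe sets tested). The 3 that fell (5.88% of all probe sets fell) were both Col4a1 probe sets and Col4a2, the chains of the main basement membrane collagen. The 3 that rose (3.88% of all probe sets rose) were Itgav, Itgb2 and Itgb3bp. In aged unimpaired against young rats, 1 of 32 was called, the rise of Itgav (3.12%, against 2.06% of all called and 1.37% higher). In aged impaired against aged unimpaired rats, limma called 0 of 32, against 0.778% of all; 1 of 32 (3.12%), Col16a1, had an unadjusted p under 0.05, against 15.2% of all. When the mean of the aged groups was set against young rats, 6 of 32 were called (18.8%, against 6.9% of all), of which 3 rose (3.34% of all) and 3 fell (3.56% of all). These comparisons share animals, so their counts are not independent. In RNA of a whole tissue, fewer cells of a type and less RNA per cell cannot be told apart.

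**Figure D2:**
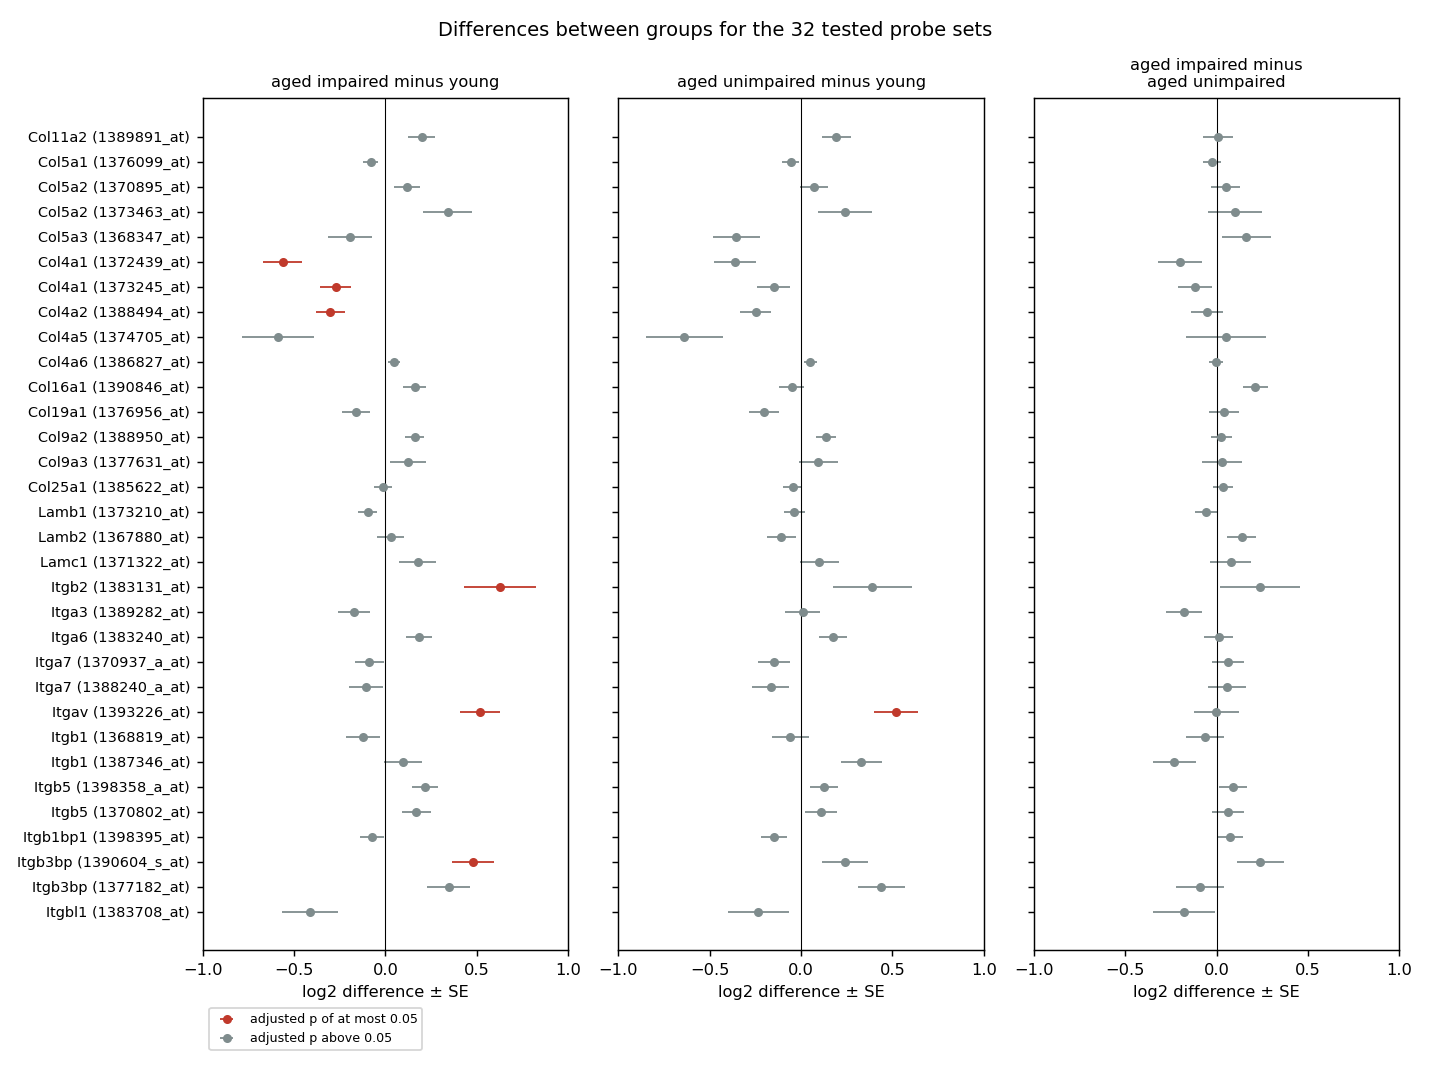
Log2 difference ± SE of each tested probe set (rows, grouped by role) in the 3 pairwise comparisons of the groups. Red points passed the adjusted threshold: 6 in aged impaired against young, 1 in aged unimpaired against young and 0 in aged impaired against aged unimpaired.

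Across the 32 tested probe sets the median log2 difference was 0.04 in aged impaired against young rats, where that of all tested probe sets was -0.02. It was -0.01 in aged unimpaired against young rats (all tested, -0.0018) and 0.03 in aged impaired against aged unimpaired rats (all tested, -0.02). The median of the family thus lay close to that of all tested probe sets, with a few members called in each direction.

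Type IV collagen held the falls. Col4a1 and Col4a2 encode chains that assemble into a shared trimer, and their genes lie head to head with a shared promoter region; Col4a5 and Col4a6 are a second such pair on the X chromosome. The RefSeq promoter windows of the pairs, from 250 bases before to 50 bases after the annotated start in GRCr8, are printed 5′ to 3′ on each gene's own strand because the members of the first pair both fell. They lie at chr16:84885471-84885770 (Col4a2, minus strand), chr16:84885347-84885646 (Col4a1, plus strand), chrX:109907109-109907408 (Col4a5, plus strand) and chrX:109905895-109906194 (Col4a6, minus strand). Capitals mark matches on either strand to GGGCGG (the GC box), CCAAT (the CCAAT box) and CCCTCCCC (a CT-rich element); TATAAA had no match.
Col4a2: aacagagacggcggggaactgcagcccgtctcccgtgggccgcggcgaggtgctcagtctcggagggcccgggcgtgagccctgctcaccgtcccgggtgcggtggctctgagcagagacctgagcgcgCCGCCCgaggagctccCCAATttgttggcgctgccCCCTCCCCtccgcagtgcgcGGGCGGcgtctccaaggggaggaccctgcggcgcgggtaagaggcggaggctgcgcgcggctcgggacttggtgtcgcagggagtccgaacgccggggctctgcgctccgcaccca
Col4a1: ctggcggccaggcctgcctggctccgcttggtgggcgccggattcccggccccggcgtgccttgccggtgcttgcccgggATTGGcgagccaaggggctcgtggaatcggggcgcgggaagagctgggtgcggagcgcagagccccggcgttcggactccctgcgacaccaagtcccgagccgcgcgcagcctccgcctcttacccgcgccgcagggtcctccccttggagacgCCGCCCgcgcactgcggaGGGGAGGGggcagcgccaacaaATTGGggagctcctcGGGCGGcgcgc
Col4a5: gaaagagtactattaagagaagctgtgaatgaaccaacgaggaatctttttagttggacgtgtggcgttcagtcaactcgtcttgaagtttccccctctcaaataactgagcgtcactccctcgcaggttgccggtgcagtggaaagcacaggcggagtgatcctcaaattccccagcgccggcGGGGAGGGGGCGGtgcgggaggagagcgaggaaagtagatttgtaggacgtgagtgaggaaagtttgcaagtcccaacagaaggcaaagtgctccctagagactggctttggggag
Col4a6: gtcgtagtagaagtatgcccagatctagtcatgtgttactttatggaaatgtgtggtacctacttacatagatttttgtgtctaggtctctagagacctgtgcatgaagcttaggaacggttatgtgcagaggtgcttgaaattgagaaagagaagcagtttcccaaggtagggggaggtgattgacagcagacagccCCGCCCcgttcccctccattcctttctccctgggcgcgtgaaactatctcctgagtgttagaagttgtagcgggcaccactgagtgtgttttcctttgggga
The Col4a2 and Col4a1 windows share 176 bases, read on opposite strands, with 76 bases between the annotated starts, whereas the Col4a5 and Col4a6 windows share 0 bases and 1414 bases separate their starts. The Col4a2 window held 2 GC boxes, 1 CCAAT box and 1 CT-rich element, and the Col4a1 window 2, 2 and 1, partly the same matches because of the shared bases. The Col4a5 window held 1 GC box and 1 CT-rich element, which overlap, and the Col4a6 window 1 GC box. Over 33469 rat promoter windows of this length, 33.1% held GGGCGG, 37.5% CCAAT, 10.5% CCCTCCCC and 14.2% TATAAA, so each match by itself is common. GC content was 73.7% (Col4a2), 75.0% (Col4a1), 53.3% (Col4a5) and 48.3% (Col4a6), against a median of 51.7% over all windows.

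Col4a1 (probe set 1372439_at) fell with the lowest adjusted p of the members. Its lowest, median and highest values were 5.27, 5.78 and 6.02 in aged impaired rats, 5.84, 5.93 and 6.05 in aged unimpaired rats, and 6.00, 6.22 and 6.73 in young rats. Thus 7 of 8 aged impaired rats lay below every young rat, and the aged unimpaired rats formed a narrow band at the lower edge of the young. Expression was 1.48-fold lower in aged impaired than in young rats (log2 difference -0.56 ± 0.11 SE, limma adjusted p = 0.00263). In aged unimpaired rats the difference from young was -0.36 ± 0.12 (adjusted p = 0.106), and 3 of 6 lay below every young rat. Aged impaired minus aged unimpaired was -0.20, with a 95% interval of -0.446 to 0.0451 (adjusted p = 0.451), so an unequal fall was not shown.

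The other Col4a1 probe set, 1373245_at, moved the same way with a smaller size. It averaged 5.44 ± 0.24 in aged impaired rats (SD, n = 8), 5.56 ± 0.12 in aged unimpaired rats (SD, n = 6) and 5.71 ± 0.15 in young rats (SD, n = 9). The difference between aged impaired and young rats was -0.27 ± 0.09 SE (adjusted p = 0.0457), with 6 of 8 animals below every young rat. The call ended when any of 14 of the 23 arrays was left out in turn (adjusted p of 0.0503 to 0.0947).

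Col4a2 fell with Col4a1. Its lowest, median and highest values were 7.63, 8.07 and 8.27 in aged impaired rats, 7.83, 8.05 and 8.19 in aged unimpaired rats, and 8.11, 8.32 and 8.45 in young rats. The ranges overlapped, with 4 of 8 aged impaired and 4 of 6 aged unimpaired rats below every young rat. The fall was 1.23-fold in aged impaired rats (-0.30 ± 0.08 SE, adjusted p = 0.02) and -0.25 ± 0.09 in aged unimpaired rats (adjusted p = 0.134). Over the mean of both aged groups it was -0.28 (adjusted p = 0.0208). The call in aged impaired rats ended with a covariate, the log2 gap between the control rows named GAPDH 5′ and GAPDH M (adjusted p = 0.0662; median gap 2.15 in aged impaired rats, 2.30 in aged unimpaired rats and 2.20 in young rats; some control rows look out of register with their names, so what this gap measures is unsure), and, narrowly, without the filter on low values (0.0507).

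Col4a5, an X-linked chain of basement membranes, passed the threshold for the mean of both aged groups and in neither aged group alone. It spanned 3.38 to 4.81 in aged impaired rats (median 4.53), 3.38 to 4.53 in aged unimpaired rats (median 4.33) and 4.55 to 5.30 in young rats (median 4.74). Of the 14 aged rats, 12 lay below every young rat, and all 6 aged unimpaired rats did so (no overlap towards lower values was found for 0.287% of all tested probe sets in that comparison). Of these aged rats, 5 (3 aged impaired and 2 aged unimpaired) stood within 0.01 of 4.534, just under the lowest young value of 4.554. The mean of both aged groups was 1.53-fold lower than young (-0.61 ± 0.17 SE, adjusted p = 0.0351). The separate differences were of like size, -0.59 ± 0.20 in aged impaired rats (adjusted p = 0.0585) and -0.64 ± 0.21 in aged unimpaired rats (adjusted p = 0.119). The values lie close to the filter, and the call ended without 1 of 7 arrays left out in turn (adjusted p of 0.0511 to 0.0728). In aged impaired rats alone it was called under 6 of 32 alternatives, which included quantile normalization and centring on array medians.

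Col4a6 stood at 5.58 on 19 of 23 arrays, so its probe set carried almost no information on any difference, and Col4a4 never left the floor. Such repeated values were frequent: 10 of the 32 tested members, and 27% of all tested probe sets, had at least 8 arrays within 0.01 of 1 value.

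**Figure D3:**
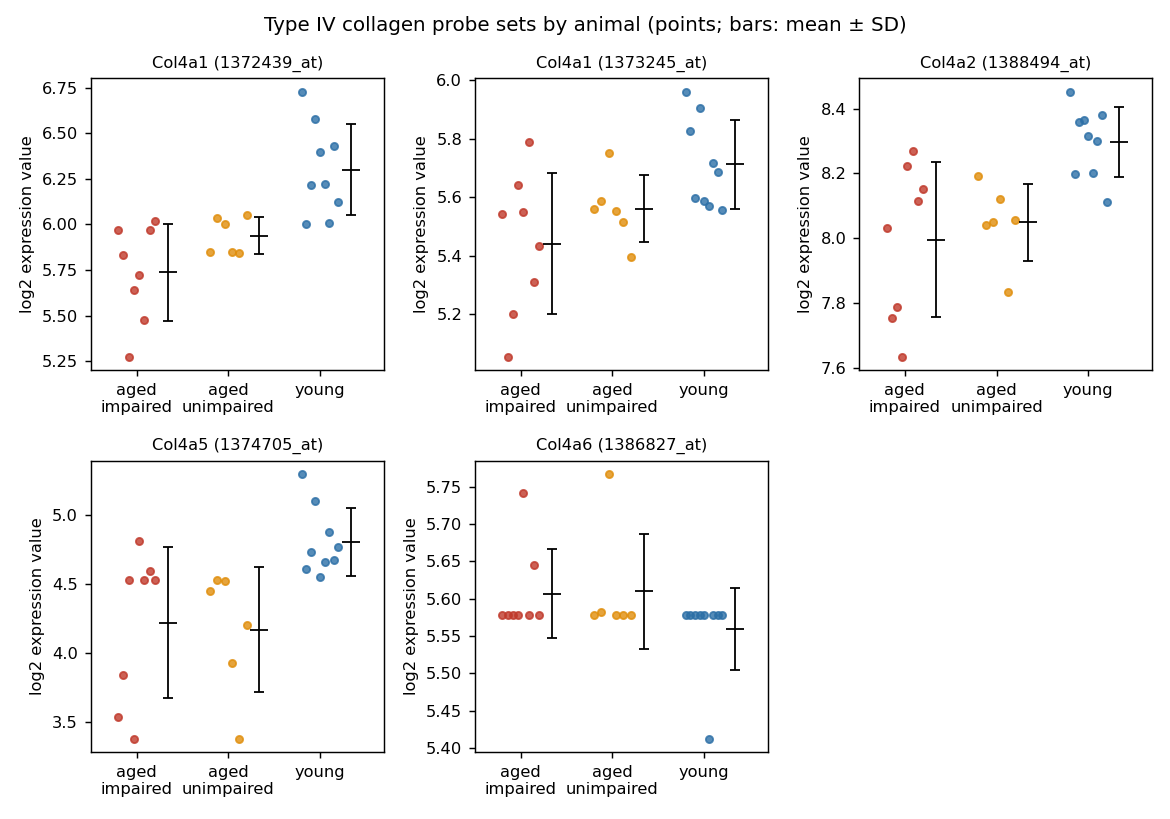
Log2 expression of the tested type IV collagen probe sets in each animal (points) with the group mean ± SD (bars), for aged impaired (n = 8), aged unimpaired (n = 6) and young rats (n = 9). Col4a1 (1372439_at) lies below every young rat in 7 of 8 aged impaired rats, and Col4a6 repeats 1 value on 19 arrays.

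Cell type markers were set beside the fall of type IV collagen. Of 8 tested endothelial markers, which included Cldn5, Flt1 and Slco1a4, limma called 0 in any comparison, and 1, Slco1a4, had an unadjusted p under 0.05 (-0.27 in aged unimpaired against young rats, adjusted p = 0.178, and -0.21 over both aged groups, adjusted p = 0.136). Of all tested probe sets, 9.76% were called and 26.3% had an unadjusted p under 0.05 in aged impaired against young rats. These shares were 2.06% and 16.8% in aged unimpaired against young rats, and 6.9% and 23.6% over both aged groups. With 8 markers, 0 calls is near the background share. The summed linear signal of the 11 endothelial genes on the array ran from 1900 to 2530 in aged impaired rats, 2000 to 2320 in aged unimpaired rats and 1990 to 2570 in young rats. Of 4 tested pericyte and smooth muscle markers, 1, Tagln, rose in aged impaired rats (0.54, adjusted p = 0.0299), where 3.88% of all probe sets rose. Pdgfrb differed by -0.03 (adjusted p = 0.761). The pericyte list summed to 362 to 695 in aged impaired rats, 432 to 501 in aged unimpaired rats and 371 to 480 in young rats, with Anpep and Notch3 at the floor. Among 5 tested meningeal and fibroblast markers, 1, Igf2, was lower for the mean of both aged groups (-1.05, adjusted p = 0.0359), where 3.56% of all probe sets fell. The CA3 neuron markers summed to 5150 to 7440 in aged impaired rats, 6470 to 7900 in aged unimpaired rats and 6950 to 8710 in young rats, with Nrip3 lower as given above. The part of these cell types in the fall of Col4a1 and Col4a2 was not tested.

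Within groups, Col4a1 and Col4a2 followed each other weakly. Over 23 rats, with group means removed, Pearson's r was 0.36 (permutation p = 0.145, 0.7 after Benjamini-Hochberg over 5 pairs) and Spearman's rho 0.44 (p = 0.0515, adjusted 0.258). Without the 2 rats farthest from the Col4a1 median r was 0.20. The values within groups were 0.25 in aged impaired rats, 0.02 in aged unimpaired rats and 0.75 in young rats. The 4 other partner pairs with both members tested (Lamb1 and Lamb2 with Lamc1, Itgav with Itgb5, Itga6 with Itgb1) had r between -0.03 and 0.25, with adjusted p of at least 0.7. The genes whose within-group pattern was most like Col4a1 were Ipo8 (r = 0.73), Fam193b (0.70) and Tmem100 (0.66) over 23 rats, and Col4a2 ranked 453.

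The fibrillar collagens of connective tissue were near the floor in 21 of 23 rats. Col1a2, a chain of type I collagen, reached 5.74 in aged impaired rat 5 and 4.85 in young rat 1, against at most 2.57 in the other 21 rats. Col1a1, its partner chain, reached 4.33 and 4.20 in the same animals, against at most 2.24 in the others. Col3a1 reached 3.83 and 2.59, against at most 2.33. In each of these groups a single animal carried the high value.

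Some meningeal genes were high in the same animals. Igf2, a growth factor of the meninges, stood at 9.14 in aged impaired rat 5 and 9.03 in young rat 1, against at most 7.81 in the other 21. The small proteoglycan Ogn stood at 7.08 in aged impaired rat 5 (2.78 in young rat 1, at most 4.59 in the others), and Dcn at 5.88 in young rat 1 (4.20 in aged impaired rat 5, at most 4.35 in the others). Lum, by contrast, lay within the range of the other rats in both. The meningeal list summed to 484 to 1450 in aged impaired rats, 548 to 671 in aged unimpaired rats and 563 to 1330 in young rats. The part of meningeal tissue in these values was not tested. Without these 2 arrays, an alternative chosen after seeing the data, 7 members were called in aged impaired against young rats in place of 6. Col4a5 and Itgbl1 were gained, Col4a1 (1373245_at) lost its call (-0.27, adjusted p = 0.0723), and the other 5 calls were kept (Col4a1 -0.60, adjusted p = 0.00374; Col4a2 -0.35, 0.015; Itgav 0.58, 0.00529).

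**Figure D4:**
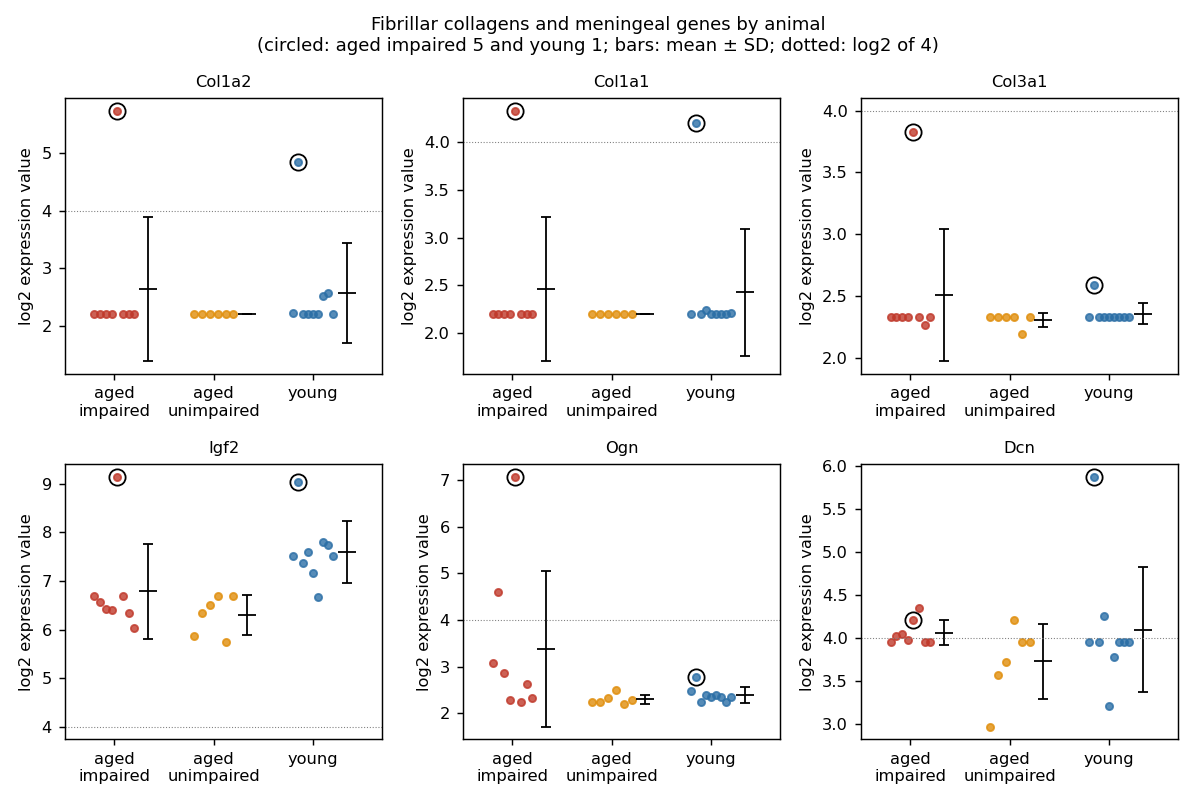
Log2 expression of Col1a2, Col1a1 and Col3a1 and of the meningeal genes Igf2, Ogn and Dcn in each animal, with group mean ± SD; circles mark aged impaired rat 5 and young rat 1, and the dotted line is a log2 value of 4. Col1a2 reaches 5.74 and 4.85 in the circled rats and at most 2.57 in the other 21.

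Of the other fibrillar collagen genes, Col2a1, Col11a1, Col24a1 and Col27a1 stayed near the floor on every array (at most 2.66) and were not tested. The 5 tested fibrillar probe sets, of Col5a1, Col5a2, Col5a3 and Col11a2, held 0 calls by limma in aged impaired against young rats, where 9.76% of all tested probe sets were called; 2 of the 5 had an unadjusted p under 0.05, against 26.3% of all. Col5a2, a chain of type V collagen that sits inside collagen fibres, had 2 tested probe sets. The first (1370895_at) averaged 8.39 ± 0.13 in aged impaired rats, 8.34 ± 0.15 in aged unimpaired rats and 8.27 ± 0.17 in young rats (SD, n = 8, 6 and 9). The second (1373463_at) had the largest difference of the group in aged impaired against young rats, 0.34 ± 0.14 SE (adjusted p = 0.108). Col11a2, a minor chain of collagen fibres, differed by 0.20 ± 0.07 (adjusted p = 0.0815), and Col5a3 by -0.19 (adjusted p = 0.321).

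Among the collagens that attach to fibres (the FACIT group), 4 of 12 probe sets were tested and none was called in any comparison. In aged impaired against young rats 9.76% of all tested probe sets were called, so 0 of 4 is near the background share. In that comparison 3 of the 4 had an unadjusted p under 0.05 by limma, against 26.3% of all. Col16a1 was the 1 tested member with an unadjusted p under 0.05 between the aged groups, a share below that of all tested probe sets (15.2%). It spanned 7.20 to 7.74 in aged impaired rats (median 7.30), 7.001 to 7.23 in aged unimpaired rats (median 7.16) and 7.03 to 7.34 in young rats (median 7.20). The aged impaired minus aged unimpaired difference was 0.21 ± 0.07 SE (95% interval 0.0656 to 0.356, adjusted p = 0.141), with 5 of 8 aged impaired above every aged unimpaired rat. Col9a2, a chain of a cartilage collagen, missed the threshold by a little in aged impaired against young rats (0.16 ± 0.05, adjusted p = 0.0513). Col19a1 differed by -0.16 ± 0.08 (adjusted p = 0.173).

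Col25a1, a transmembrane collagen made by neurons and known from amyloid plaques, was expressed at a steady level in all groups. It spanned 10.24 to 10.62 in aged impaired rats, 10.26 to 10.53 in aged unimpaired rats and 10.27 to 10.54 in young rats. Its difference was -0.01 ± 0.05 in aged impaired against young (adjusted p = 0.892), with a 95% interval from -0.115 to 0.0884.

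The laminins showed no called change. Of 14 probe sets, 1 each for the beta chains Lamb1 and Lamb2 and for the gamma chain Lamc1 was tested. Lamb1 averaged 6.79 ± 0.12 in aged impaired rats, 6.85 ± 0.02 in aged unimpaired rats and 6.89 ± 0.14 in young rats (SD, n = 8, 6 and 9). Lamb2 averaged 7.32 ± 0.18 in aged impaired rats, 7.18 ± 0.19 in aged unimpaired rats and 7.29 ± 0.09 in young rats. Lamc1 averaged 5.88 ± 0.31 in aged impaired rats, 5.81 ± 0.08 in aged unimpaired rats and 5.71 ± 0.17 in young rats. Their differences from young ran from -0.10 to 0.18 in aged impaired rats, with the lowest adjusted p at 0.258, and from -0.11 to 0.10 in aged unimpaired rats (lowest adjusted p 0.519). With 3 probe sets tested and 9.76% of all called in aged impaired against young rats, 0 calls by limma is near the background share (0 of 3 also had an unadjusted p under 0.05), and laminins were not tested against type IV collagen.

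Itgav rose in both aged groups. It encodes the alpha v subunit, which pairs with several beta subunits and binds vitronectin, fibronectin and latent TGF-beta. Its lowest, median and highest values (1393226_at) were 8.78, 8.88 and 9.28 in aged impaired rats, 8.72, 8.97 and 9.23 in aged unimpaired rats, and 7.79, 8.49 and 8.77 in young rats. All 8 aged impaired rats lay above every young rat, a lack of overlap found for 0.594% of all tested probe sets, and so did 5 of 6 aged unimpaired rats. The margin was narrow: the lowest aged impaired rat stood at 8.78 and the highest young rat at 8.772, within 0.01 of each other.

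The rise of Itgav was of the same size in the aged groups. It was 1.43-fold in aged impaired rats (0.52 ± 0.11 SE, adjusted p = 0.00605) and 1.44-fold in aged unimpaired rats (0.52 ± 0.12 SE, adjusted p = 0.0229). Aged impaired minus aged unimpaired was -0.0031, with a 95% interval from -0.257 to 0.251. Over both aged groups the rise was 0.52 (adjusted p = 0.00277), with 13 of 14 aged rats above every young rat. The call in aged unimpaired rats ended without aged unimpaired rat 4 (adjusted p = 0.0706), with the control gap described above as a covariate (0.0514) and without the filter (0.0696). The other Itgav probe sets lay near the floor on all arrays, so the rise rests on 1 probe set. Astrocyte markers also moved: 3 of 9 tested rose and 0 fell in aged impaired rats, namely Gfap (0.62, adjusted p = 0.0007), S100b (0.21, adjusted p = 0.00512) and Fgfr3 (0.20, adjusted p = 0.0432), and 2 rose in aged unimpaired rats. Of all tested probe sets, 3.88% rose in aged impaired rats and 1.37% in aged unimpaired rats. The summed signal of the astrocyte markers ran from 36800 to 46900 in aged impaired rats, 37700 to 45500 in aged unimpaired rats and 30900 to 37900 in young rats. Microglial markers rose too, 9 of 12 tested in aged impaired rats and 8 in aged unimpaired rats, with 0 lower in either. The parts of astrocytes and of microglia in the rise of Itgav were not tested.

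Of the beta subunits that pair with alpha v, only Itgb5 and Itgb1 had tested probe sets, and none of these was called in any comparison. Itgb5 (1398358_a_at) averaged 7.03 ± 0.10 in aged impaired rats, 6.94 ± 0.16 in aged unimpaired rats and 6.81 ± 0.18 in young rats (SD, n = 8, 6 and 9), with a difference of 0.21 ± 0.07 in aged impaired against young (adjusted p = 0.0552). The other tested Itgb5 probe set (1370802_at) differed by 0.17 ± 0.08 (adjusted p = 0.177). Itgb1, the most widely shared beta subunit, differed by -0.12 ± 0.09 (1368819_at, adjusted p = 0.419) and 0.10 ± 0.10 (1387346_at, adjusted p = 0.586), and its probe sets disagreed in sign. In aged unimpaired against young rats 1387346_at differed by 0.33 ± 0.11 (adjusted p = 0.134; called without aged unimpaired rat 1), and between the aged groups by -0.23 (adjusted p = 0.353). Itgb3 and Itgb6 stayed below 4 on every array and were not tested. The same held for Itgb4, which is not a partner of alpha v. Itgb8 had no probe set among the members, so it was not examined. Of the laminin-binding alphas, Itga6 differed by 0.19 ± 0.07 (adjusted p = 0.0972), and Itga3 and Itga7 by -0.17 and -0.11 to -0.09.

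Itgb2, the beta subunit of the leukocyte integrins, which in brain is carried by microglia, rose in aged impaired rats. Its lowest, median and highest values were 3.88, 4.23 and 5.51 in aged impaired rats, 4.02, 4.22 and 4.73 in aged unimpaired rats, and 3.36, 3.91 and 4.01 in young rats. Aged impaired rats 2, 3 and 4 reached 5.51, 4.88 and 5.27, while 3 others lay within the young range. Since the young mean lay below 4, the rise is given as at least 1.4-fold (0.63 ± 0.20 SE, adjusted p = 0.0457). In aged unimpaired rats the difference was 0.39 ± 0.21 (adjusted p = 0.366). All 6 lay above every young rat (no overlap towards higher values was found for 0.649% of all tested probe sets). The margin was narrow, since the lowest aged unimpaired rat stood at 4.016 and the highest young rats at 4.006. The call in aged impaired rats ended when any of 17 arrays was left out in turn (adjusted p of 0.0504 to 0.0894).

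The partner alpha subunits of Itgb2 stayed near the floor. Itgam spanned 2.22 to 2.63 in aged impaired rats, 2.22 to 2.62 in aged unimpaired rats and 2.22 to 2.22 in young rats, and Itgal, Itgax and Itgad did not exceed 2.21. Microglial markers rose beside Itgb2: 9 of 12 tested were higher in aged impaired rats and 8 in aged unimpaired rats, with 0 lower in either, among them Aif1 (1.07 and 0.85) and Fcer1g (0.92 and 0.75). Of all tested probe sets, 3.88% and 1.37% rose in these comparisons. The summed signal of the microglial markers ran from 5060 to 9190 in aged impaired rats, 5050 to 6710 in aged unimpaired rats and 3700 to 4690 in young rats, without overlap with the young, and Cd68 lay at the floor. The part of microglial number in the rise of Itgb2 was not tested.

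**Figure D5:**
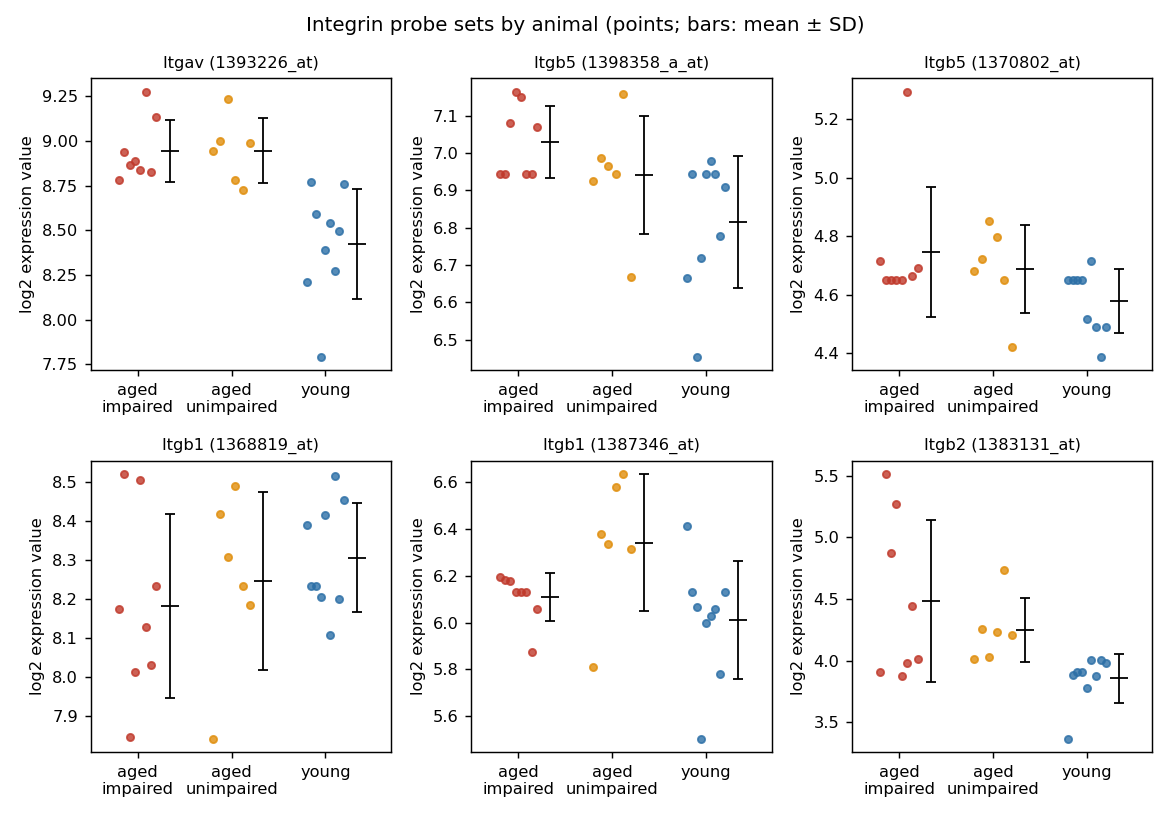
Log2 expression of the tested probe sets of Itgav, Itgb5, Itgb1 and Itgb2 in each animal (points) with the group mean ± SD (bars). All 8 aged impaired rats lie above every young rat for Itgav, the closest by a narrow margin (8.78 against 8.772). Aged impaired rats spread widely for Itgb2, from 3.88 to 5.51.

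The genes that match by name alone held 1 further call. Itgb3bp encodes a mostly nuclear protein, also called CENP-R, that binds the tail of the beta3 integrin subunit. Its first probe set (1390604_s_at) spanned 5.004 to 5.91 in aged impaired rats (median 5.50), 4.85 to 5.41 in aged unimpaired rats (median 5.31) and 4.67 to 5.31 in young rats (median 5.04), and 7 of 8 aged impaired rats lay above every young rat. It rose 1.39-fold in aged impaired against young rats (0.48 ± 0.12 SE, adjusted p = 0.0125). The second probe set (1377182_at) differed by 0.35 ± 0.12 in aged impaired (adjusted p = 0.0619) and 0.44 ± 0.13 in aged unimpaired rats (adjusted p = 0.0743). Over both aged groups the probe sets rose by 0.36 (adjusted p = 0.0359) and 0.39 (adjusted p = 0.0251). Itgbl1, a secreted protein with integrin-like repeats, differed by -0.41 ± 0.15 in aged impaired rats (adjusted p = 0.0872), and Itgb1bp1, an adaptor of the beta1 tail, by -0.07 (adjusted p = 0.497).

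Genes that process, cleave, bind or signal for this family were taken from 5 lists, whose counts in aged impaired against young rats are to be read against the 3.88% of all tested probe sets that rose and the 5.88% that fell. In aged unimpaired against young rats 2.06% of all were called in either direction and 1.37% rose. Over both aged groups 3.34% of all rose and 3.56% fell. Among 9 tested genes of collagen processing, 1 fell and 0 rose in aged impaired rats. Loxl1, which cross-links matrix, fell in aged impaired rats (-0.44 ± 0.11 SE, adjusted p = 0.0128). It had a median of 5.20 in aged impaired rats, 5.35 in aged unimpaired rats and 5.63 in young rats. The collagen chaperone Serpinh1 differed by -0.31 (adjusted p = 0.0972), and the hydroxylase subunit P4ha1 by -0.27 (adjusted p = 0.0833).

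Among 12 tested proteases and inhibitors, 2 rose and 1 fell in aged impaired rats. The metalloprotease inhibitor Timp2 rose in aged impaired rats (0.56 ± 0.11 SE, adjusted p = 0.00408), with medians of 9.70 in aged impaired rats, 9.53 in aged unimpaired rats and 9.19 in young rats. Plat, which encodes tissue plasminogen activator, rose by 0.23 (adjusted p = 0.0475), and the membrane-anchored metalloprotease Mmp17 was lower (-0.26, adjusted p = 0.023). The secreted proteases Mmp2, Mmp3 and Mmp9 were not tested because they stayed below 4.

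Among 12 tested basement membrane partners, 1 rose and 1 fell in aged impaired rats, 1 fell in aged unimpaired rats and 2 fell over both aged groups. Nid1, which bridges laminin and type IV collagen, was lower over both aged groups (-0.44, adjusted p = 0.0352). Its separate differences were -0.37 in aged impaired (adjusted p = 0.0902) and -0.50 in aged unimpaired rats (adjusted p = 0.089). Dag1, the dystroglycan receptor of laminin, was lower in aged impaired rats by a small amount (-0.12, adjusted p = 0.0136), and Fbln1 was higher (0.29, adjusted p = 0.0497). Agrn, a heparan sulfate proteoglycan, was lower in aged unimpaired rats (-0.25, adjusted p = 0.0486) and differed by -0.08 in aged impaired rats (adjusted p = 0.422).

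Among 9 tested integrin ligands, 2 rose and 0 fell in each aged group. C3, the complement component whose fragments bind leukocyte integrins, averaged 7.22 ± 0.89 in aged impaired rats, 7.35 ± 0.48 in aged unimpaired rats and 3.65 ± 0.95 in young rats (SD, n = 8, 6 and 9), and was at least 9.32-fold higher in aged impaired rats (adjusted p = 1.7e-05). Ccn2, a matricellular protein, averaged 7.82 ± 0.74 in aged impaired rats, 7.50 ± 0.55 in aged unimpaired rats and 6.03 ± 0.90 in young rats. It rose by 1.79 in aged impaired rats (adjusted p = 0.00381) and by 1.47 in aged unimpaired rats (adjusted p = 0.0448). The alpha v ligands Fn1 and Vtn differed by 0.15 (adjusted p = 0.528) and 0.07 (adjusted p = 0.681) in aged impaired rats.

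Among 19 tested adaptors, 2 rose and 1 fell in aged impaired rats. Vcl (vinculin) and Tln1 (talin) rose in aged impaired rats, by 0.39 ± 0.10 SE (adjusted p = 0.0139) and 0.20 ± 0.05 SE (adjusted p = 0.0119), and Bcar1, a docking protein of focal adhesions, was lower (-0.31, adjusted p = 0.043). Src was lower over both aged groups (-0.16, adjusted p = 0.041), and Ptk2, the focal adhesion kinase, differed by -0.18 in aged impaired rats (adjusted p = 0.2). No gene of the 5 lists was called between the aged groups, where 0.778% of all tested probe sets were called.

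Between aged impaired and aged unimpaired rats the intervals of the called members were wide enough to hold differences of some size. Besides Col4a1 (1372439_at) and Itgav, given above, the 95% interval of the aged impaired minus aged unimpaired log2 difference was -0.317 to 0.0759 for Col4a1 (1373245_at), -0.235 to 0.13 for Col4a2, -0.401 to 0.502 for Col4a5, -0.216 to 0.693 for Itgb2 and -0.0267 to 0.505 for Itgb3bp (1390604_s_at). With 8 and 6 animals, a difference between the aged groups of the size seen against young rats lay inside the interval for Col4a1 (1373245_at), Itgb2 and Itgb3bp.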

How the data were processed

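The deposited values are log2 expression values of CA3 arrays made by the authors with GCRMA, per the submitters' processing notes; its version is not given in the sources used here. GCRMA corrects background from probe sequence, normalizes arrays to each other and summarises probe sets, so dim probe sets collapse onto a floor (2.195). Values also repeated well above the floor, such as Col5a1 (1376099_at) at 6.673 on 16 arrays, and the cause of this was not tested. From these values, probe sets at 4 or more on at least 6 arrays were tested (14647 of 31042), with limma 3.58.1 (R 4.3.3): lmFit and eBayes on all 23 arrays, 1 mean per group, 20 residual and 2.35 prior degrees of freedom, two-sided, Benjamini-Hochberg over all tested probe sets, called at an adjusted p of at most 0.05. A fold is a bound against 4 where a group mean lay below 4. Arrays have no read depth, so precision rests on how many there are. Genes were named from the platform annotation, and all 112 member probe sets were matched to a current gene table with 0 symbols changed. Promoter windows are RefSeq's (GRCr8), found for 60 of the 77 genes.

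Named with values are members called in any comparison, the brightest member of each role group in young rats, the largest difference in a role group with no call, and called partner genes; Col9a2, Col11a2, Col5a3, Itgam and other members were named beyond this rule after their values were seen. The members and lists were chosen with earlier results of these data known. Same-numbered animals did not deviate together (20 pairs, r from -0.139 to 0.132), so the numbers were not used as pairs. The model was checked on simulated data, and alternatives are described in the closing section.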

Additional observations from a re-analysis of the deposited data

Results flagged for a closer look

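Animals were looked at for values that stand far from the rest of their own group. Dixon's criterion for the gap of the highest or lowest animal was applied in 105 groups of members' probe sets. These were the tested members and Col1a1, Col1a2 and Col3a1, which failed the filter and whose high values are described above. There were 23 values that met the criterion. Chance alone would give about 1 in 20 groups if values did not repeat. Many of these probe sets repeat 1 value, so that rate does not apply here.

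The clearest lay in the fibrillar collagens. Aged impaired rat 5 stood above its group at 5.74 for Col1a2, 4.33 for Col1a1 and 3.83 for Col3a1, and young rat 1 at 4.85, 4.2 and 2.59 for the same genes. Aged unimpaired rat 7 lay below its group at 2.19 for Col3a1, at the floor of the scale.

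In type IV and type V collagens most such values came from probe sets that repeat 1 value. Col4a6 stood at 5.74 in aged impaired rat 5, 5.77 in aged unimpaired rat 4 and 5.41 in young rat 5, away from a value shared by 19 arrays. Col5a1 stood at 6.47 in aged impaired rat 2 and 6.73 in aged unimpaired rat 8, away from a value shared by 16 arrays. Col19a1 was low in aged unimpaired rat 1 (5.31) and Col9a2 in young rat 8 (3.97).

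Among the integrins, Itgb2 was high in aged unimpaired rat 7 (4.73) and low in young rat 9 (3.36). Itga6 was high in young rat 5 (8.69). Itga7 was high in young rat 2 (6.38, probe set 1370937_a_at) and, for probe set 1388240_a_at, high in aged impaired rat 1 (6.06) and low in aged unimpaired rat 7 (5.57). Itgb1 (1387346_at) was low in aged impaired rat 7 (5.88) and Itgb5 (1370802_at) high in aged impaired rat 6 (5.3). Itgb3bp (1390604_s_at) was low in aged unimpaired rat 1 (4.85).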

How the results depend on the processing

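Col4a1 (1372439_at), Itgav and Itgb3bp (1390604_s_at) in aged impaired against young rats, and Col4a1 (1372439_at) and Itgav over both aged groups, kept direction and call under all 32 alternatives run; no called member reversed under any. Col4a2 kept its call in 29 of 32 in aged impaired rats (adjusted p of 0.00824 to 0.0727 over all) and in 30 of 32 over both aged groups, Itgav in aged unimpaired rats in 28 of 32, Itgb3bp over both aged groups in 22 (1390604_s_at) and 29 (1377182_at), Col4a5 in 22, Col4a1 (1373245_at) in 13 and Itgb2 in 10. Calls gained in aged impaired rats were Itgb5 (1398358_a_at) in 7 alternatives, Col4a5 in 6, Col9a2 in 5, Itgbl1 in 3 and Itgb3bp (1377182_at), Itga6 and Col11a2 in 1 each. For aged impaired against young, calls over all probe sets moved from 1429 to 937 with the control gap as a covariate, 768 without the filter, 870 with a replicate block and 2355 with arrays centred on their medians, which took the share that rose to 20.6% in place of 39.7%; members called moved from 6 to 3 under the first 3 of these, and to 7 with array weights. For aged unimpaired against young, calls moved from 302 to 672 with array weights (55.8% higher in place of 66.2%), 126 without the filter and 86 with a replicate block; the 1 member call became 2 with array weights and without aged impaired rat 5 and young rat 1, and 0 with the control gap, without the filter and with the replicate block. Between the aged groups, calls moved from 114 to 222 with array weights (69.4% higher in place of 86.8%), 0 with the control gap, 2 without the filter, 181 with quantile normalization, 0 with the replicate block and 4 without aged impaired rats 1 and 2, with 0 members in each. Over both aged groups, calls moved from 1010 to 509 without the filter and 527 with the replicate block, and to 1467 and 1515 with array weights and median centring; members moved from 6 to 2 and 3 under the first and second of these. Leaving out 1 array at a time gave 1017 (aged impaired 2) to 1808 (aged impaired 1) calls with 4 to 9 members in aged impaired rats, 175 (aged unimpaired 4) to 382 with 0 to 2 members in aged unimpaired rats, 2 (aged unimpaired 4) to 447 (aged unimpaired 7) with 0 members between the aged groups, and 615 (young 3) to 1285 with 3 to 8 members over both. Without the filter more probe sets are tested; the cause of the other shifts was not tested. With the replicate block Col4a2 had an adjusted p of 0.0727 and Itgav in aged unimpaired rats 0.119; the numbers were not shown to pair animals, since 2 of 20 pairs had r over 0.1 and 3 of 22 arrays correlated best with their own number. Values near the floor are compressed, which limits Itgb2 and Col4a5.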

Other observations

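Among the young rats, animal 9 had the highest values of both Col4a1 probe sets (6.73 and 5.96), of Col4a2 (8.45) and of Col4a5 (5.30), and the lowest of Itgb2 (3.36). Its record stands among those of the aged unimpaired rats, and its label, young, was followed. Without it the calls of Col4a1 (1373245_at, adjusted p = 0.0822) and Itgb2 (0.0814) in aged impaired rats and of Col4a5 over both aged groups (0.0701) ended, as they did without several other animals. Among the aged unimpaired rats, animal 7 had the lowest Col4a1 (1372439_at, 5.84), Col4a2 (7.83), Col4a5 (3.38) and Itgav (8.72) and the highest Itgb2 (4.73), whereas for Col4a1 (1373245_at) animal 8 was lowest (5.40, against 5.52 in animal 7). These animals were picked out after their values were seen.

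Some members outside the test rose above a log2 value of 4 in 1 or 2 animals. Col6a1, a chain of collagen VI, reached 4.37 in aged impaired rat 5 and 4.25 in aged impaired rat 3. Itga1, a collagen-binding alpha subunit, reached 4.33 in young rat 7, Itgae, an alpha subunit of tissue lymphocytes, 4.24 in young rat 8, and Col15a1, a multiplexin of basement membranes, 4.03 in aged impaired rat 7.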
